A study of Caenorhabditis elegans with 4 samples.

Results

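The peaks described here are regions called for tagged HPL-2 on the X chromosome of Caenorhabditis elegans by chromatin immunoprecipitation and sequencing (ChIP-seq). They were chosen by chromosome alone, as every peak assigned to X in the deposited lists. X held 4453 of the 30000 peaks of ChIP replicate 1, 3218 of the 22864 peaks of ChIP replicate 2 and 24 peaks of the combined list, where the autosomes held the other 305. In all, 7695 of the 53193 entries lie on X. How the combined list was made is not given, and the same site on X can appear in several lists.

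The series has 2 ChIP libraries, precipitated with goat antibodies against GFP, and 2 input libraries of sonicated chromatin set aside before the precipitation. All came from young adult hermaphrodites of strain YL472, grown at 20 °C and crosslinked with formaldehyde. The genotype is unc-119(ed3) III; vrEx66, where vrEx66 is an extrachromosomal array, made by bombardment and not outcrossed, that carries HPL-2 fused to GFP and FLAG under the mex-5 promoter, with the hpl-2 3′ UTR and a wild-type unc-119 marker. ChIP and input libraries share this genotype, and the samples include no worms without the tag. The mex-5 promoter is used for germline expression, so the tagged protein need not follow the tissue pattern of native HPL-2. In the RefSeq gene table of assembly WBcel235, hpl-2 and unc-119 lie on chromosome III and mex-5 on chromosome IV, so none of these genes named in the array is native to X. The labels do not say whether the replicates came from separate cultures.

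HPL-2 is a worm homologue of heterochromatin protein HP1, a family of chromodomain proteins that bind histone H3 methylated at lysine 9. The X chromosome differs from the autosomes in its regulation. In the hermaphrodite germline it is largely silent through much of germ cell development, and in somatic cells both X chromosomes are bound by a dosage compensation complex that lowers their transcription. In C. elegans, methylation of this lysine is concentrated on the distal arms of the autosomes, while X shows a weaker difference between arms and centre.

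The lists give each peak a position in WormBase build WS220, a number used as its rank and a score whose scale is not named. Scores and ranks are the authors' own and were read only within a list. Read depth is unknown, and no input values were analysed. The list of replicate 1 ends at exactly 30000 peaks, and whether a limit set its length is not given. Each X peak was 490 bp wide in replicate 1, 420 bp in replicate 2 and 636 bp in the combined list, so width carries no information about the extent of binding on X. No genome of build WS220 was used, and therefore neither the sequence nor the genes at these sites are given.

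The first comparison set peak density on X against that on the autosomes. X held fewer peaks per Mb than any of the 5 autosomes in each of the 3 lists. In replicate 1 the density was 251 peaks per Mb on X, against 275 on V, the lowest autosome, and 353 on III, the highest. In replicate 2 X had 182 peaks per Mb, against 203 on V and 278 on III. In the combined list X had 1.35 peaks per Mb, against 2.34 on V and 5.44 on III. The ends of the order were thus shared by the lists, with X lowest, V next and III highest.

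**Figure D1:**
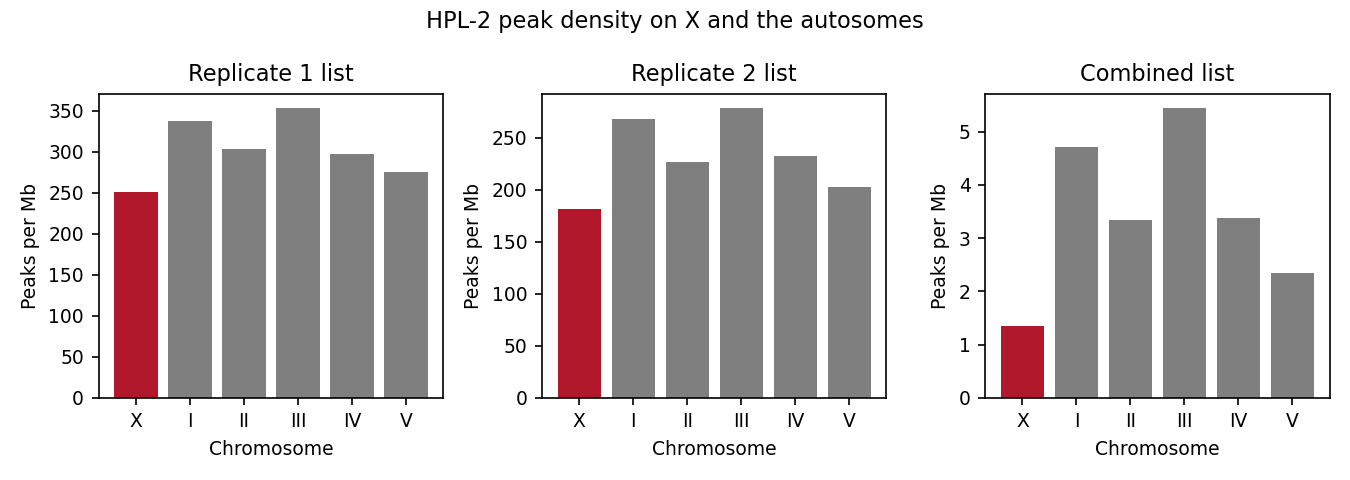
Peaks per Mb on X (red) and on each autosome (grey) in the 3 deposited lists, 1 bar per chromosome and with no error bar because each bar is a count. X is lowest in each panel, with 251, 182 and 1.35 peaks per Mb.

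Relative to all autosomes the density on X was 0.813 in replicate 1 (95% interval 0.775 to 0.853, adjusted p = 6.07e-17) and 0.764 in replicate 2 (0.723 to 0.808, adjusted p = 7.27e-21, n = 1008 windows). In the combined list the ratio was 0.367 (0.227 to 0.591, adjusted p = 7.12e-05, n = 1008 windows). These tests are quasi-Poisson regressions of the peak count in windows of about 100 kb over all nuclear chromosomes, two-sided, with Benjamini-Hochberg adjustment over 13 tests. They take their error from the spread between windows and not from worm populations, and there is 1 X chromosome. Against V alone, the autosome nearest in density, the ratio was 0.913 in replicate 1 (adjusted p = 0.00355) and 0.896 in replicate 2 (adjusted p = 0.000823, n = 384 windows). In the combined list the ratio to V was 0.578 and did not pass (adjusted p = 0.0902, n = 384 windows), a comparison of 24 peaks on X with 49 on V. The merged peaks covered 11.4% of X, against 13.9% of the autosomes, in replicate 1, and 7.35% of X, against 9.52% of the autosomes, in replicate 2.

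The shortage on X was then followed along the rank. The share of peaks on X was lowest among the 1000 best-ranked peaks and rose toward the end of each replicate list, without reaching the 17.7% that X makes up of the nuclear length. Ranks here count nuclear peaks only, and the class called the best peaks is as long as the combined list. In replicate 1, X held 32 of the best peaks (9.73%, 95% exact binomial interval 6.75 to 13.5%), 65 of those from there to rank 1000 (9.69%) and 501 from there to rank 5000 (12.5%). It held 730 from there to rank 10000 (14.6%) and 3125 beyond (15.6%, interval 15.1 to 16.2%). In replicate 2 the same classes held 9 X peaks (2.74%, interval 1.26 to 5.13%), 50 (7.45%), 454 (11.3%), 742 (14.8%) and 1963 (15.3%, interval 14.7 to 15.9%). The replicates thus had close X shares beyond rank 5000, while their intervals among the best peaks do not overlap. All the best peaks of both lists are tied at the highest score of their list, so the gap between 9.73% and 2.74% rests on the order of tied peaks. Over all peaks at the highest score, X held 9.78% in replicate 1 (50 of 511, interval 7.35 to 12.7%) and 7.99% in replicate 2 (147 of 1840, interval 6.79 to 9.32%), and these intervals overlap. The intervals cover counting error alone, and the difference between the replicates was not tested.

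**Figure D2:**
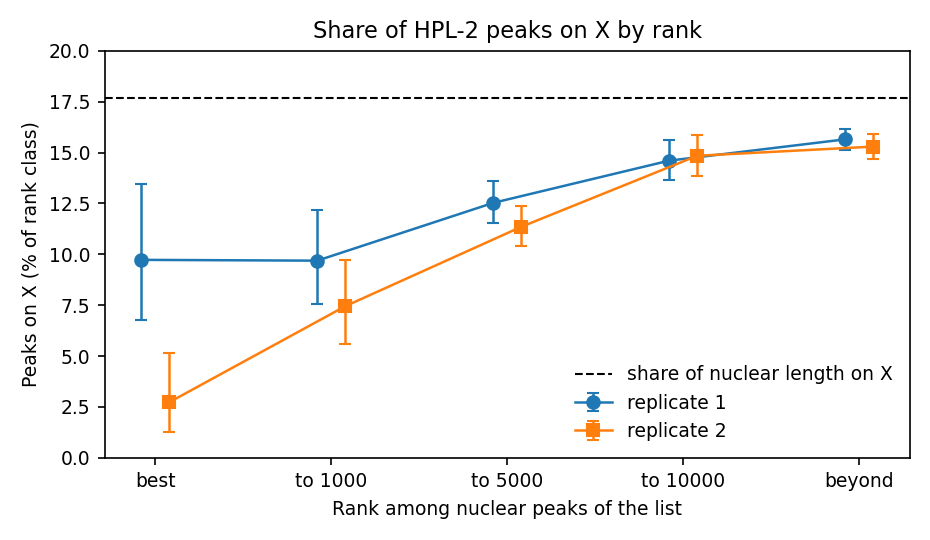
Share of peaks on X (% of each rank class) in replicate 1 (circles) and replicate 2 (squares) for 5 classes of rank, from the best peaks (as many as the combined list holds) through ranks up to 1000, 5000 and 10000 to those beyond, with 95% exact binomial intervals for counting error. The dashed line is the share of nuclear length on X, 17.7%, and all points lie below it, from 9.73% and 2.74% among the best peaks, which are all tied in score, to 15.6% and 15.3% beyond rank 10000.

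With each doubling of the rank, the odds that a peak lay on X rose by a factor of 1.09 in replicate 1 (95% interval 1.06 to 1.12, adjusted p = 5.71e-10, n = 29973 peaks) and 1.16 in replicate 2 (1.13 to 1.19, adjusted p = 4.27e-23, n = 22838 peaks). The tests are logistic regressions over all nuclear peaks of a list with standard errors clustered by 100 kb. The median rank of an X peak was 16009 in replicate 1, against medians between 13929 and 15782 on the individual autosomes. In replicate 2 the X median was 12324, against 10544 to 11841. X therefore had a weaker median rank than each autosome in both replicate lists. In the combined list the X median rank was 138, against 135 on V and 161 to 185 on the other autosomes.

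The highest score was shared by the first 511 nuclear peaks of replicate 1 and the first 1840 of replicate 2, which include all of the 1000 best of replicate 2. Among these tied peaks the order rests on the deposited number alone. Their density on X relative to the autosomes was 0.505 in replicate 1 and 0.404 in replicate 2, in an alternative added after the data were seen. At the highest score X held 50 peaks in replicate 1, or 1.12% of its peaks, against 1.32% on V and 2.40% on I, the ends of the autosome range. In replicate 2 X held 147, or 4.57% of its peaks, against 6.93% on V and 10.1% on III. Over peaks below the highest score alone, also added then, the odds factor was 1.10 in both replicates and passed the same test. Below the highest score, 488 of 29462 peaks in replicate 1 (1.66%) and 1465 of 20998 in replicate 2 (6.98%) still shared a score with another peak.

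The next comparison asked where along X the peaks lay. Over the full lists they were spread nearly evenly from left to right. With X cut into 3 parts of equal length, the left, central and right parts held 1495, 1443 and 1515 peaks in replicate 1, or 253, 244 and 257 per Mb. In replicate 2 they held 1099, 1075 and 1044 peaks, or 186, 182 and 177 per Mb. The central part had 0.959 times the density of the outer parts in replicate 1 (95% interval 0.876 to 1.05, adjusted p = 0.461) and 1.003 times in replicate 2 (0.906 to 1.11, adjusted p = 0.950, quasi-Poisson regression, n = 1008 windows). Neither ratio passed the test, which does not show that the parts are alike.

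The same contrast was then set beside that on the autosomes. There the central part had 1.001 times the mean count of an outer part in replicate 1 and 1.12 times in replicate 2. In replicate 1 the individual autosomes ran from 0.958 on III to 1.04 on I, with X at 0.959. In replicate 2 each autosome was between 1.10 and 1.16, all above the X value of 1.003. The difference between X and the autosomes was tested itself and did not pass. It was a ratio of 0.958 in replicate 1 (95% interval 0.868 to 1.06, adjusted p = 0.461) and 0.899 in replicate 2 (0.806 to 1.003, adjusted p = 0.0927, quasi-Poisson regression, n = 1008 windows). This fit, like that within X, used 1 spread for the windows of all chromosomes, 2.08 times the Poisson variance in replicate 1 and 1.93 in replicate 2. The windows of X varied less than those of the autosomes, as given below, and a fit with the spread of X alone was not run. With the central part widened to 50% of the length, replicate 1 gave a ratio of 0.893 and passed (adjusted p = 0.0252, n = 1008 windows). The same setting gave 0.900 in replicate 2 and did not pass (adjusted p = 0.0735, n = 1008 windows).

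**Figure D3:**
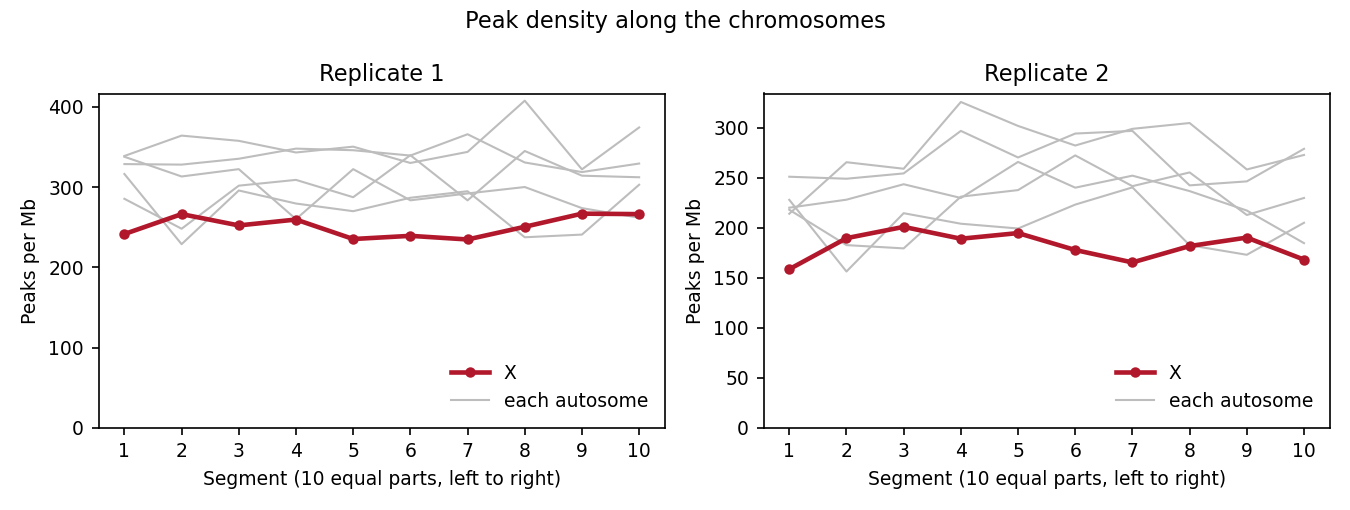
Peaks per Mb in 10 equal segments of each chromosome, from left to right, for X (red, with points) and for each autosome (grey), in replicate 1 and replicate 2. The X line stays between 235 and 267 in replicate 1 and between 159 and 201 in replicate 2, and in some segments an autosome dips below it.

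In 10 equal segments, X ranged from 235 peaks per Mb in segment 7 to 267 in segment 9 in replicate 1, with a median of 251. In replicate 2 it ranged from 159 in segment 1 to 201 in segment 3, with a median of 185. The segments with the lowest and highest density on X thus differed between the replicates. Chromosome V in replicate 1 ranged from 229 to 316 peaks per Mb and II from 248 to 345, wider ranges than that of X. Chromosome I ranged from 319 to 366 in replicate 1 and from 242 to 297 in replicate 2. Relative to its higher density, I was thus about as even as X at this scale.

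At the scale of 100 kb the counts on X also varied little. Over 177 complete windows the count ran from 2 to 42 with a median of 25 in replicate 1, and from 5 to 32 with a median of 18 in replicate 2. Every one of these windows of X held a peak in both replicates. So did every window of I, II, III and IV, and V had 1 empty window of 209 in each replicate, so this is not particular to X. The variance of the window counts was 1.61 times their mean on X in replicate 1, against 1.93 to 2.76 times on the individual autosomes. In replicate 2 the ratio was 1.34 on X, against 1.98 to 2.37. This ratio depends on the mean itself, so the variance beyond counting noise was also divided by the squared mean. That gave 0.0241 on X, against 0.0264 to 0.0638 on the autosomes, in replicate 1, and 0.0188 on X, against 0.0367 to 0.0659, in replicate 2. X was thus the most even of the 6 chromosomes by both measures in both replicate lists, as a description with no test.

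The densest windows on X were not the same in the replicates. In replicate 1 they were 16100001 to 16200000 with 42 peaks, 13300001 to 13400000 with 40 and 6700001 to 6800000 with 39. Replicate 2 had 24, 20 and 14 peaks in them, against its median of 18. The densest of replicate 2 were 6200001 to 6300000 with 32 peaks, and 4700001 to 4800000 and 9700001 to 9800000 with 29 each. Across the windows of X, Pearson's r between the counts of the replicates was 0.40 and Spearman's rho was 0.36. On the individual autosomes Pearson's r was between 0.58 and 0.67, over 137 to 209 windows. The points share their libraries and the sequence of each window, and the counts on X have a smaller spread, so these values are a description.

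The longest stretch of X free of peaks lay near the left end in both replicates. It ran from 210695 to 297299 in replicate 1 (86.6 kb) and from 245586 to 299016 in replicate 2 (53.4 kb), so these stretches overlap each other. Replicate 2 had 4 peaks inside the stretch of replicate 1, and replicate 1 had 1 peak inside that of replicate 2. In the combined list the longest stretch was 1728 kb, from 15201184 to 16929570, within which replicate 1 held 477 peaks and replicate 2 held 314.

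Neighbouring peaks stood farther apart on X. The median distance from an X peak midpoint to the nearest other was 1.28 kb in replicate 1, against medians of 0.915 to 1.02 kb on the individual autosomes. In replicate 2 the X median was 1.86 kb, against 1.08 to 1.40 kb. Overlapping calls made up 31.0% of X peaks, against 35.2% of autosomal peaks, in replicate 1, and 18.0% of X peaks, against 22.9%, in replicate 2. Among the 1000 best-ranked nuclear peaks of replicate 2, 6 of the 59 on X (10.2%) had another of the 1000 within 5 kb, against 345 of the 941 on autosomes (36.7%). In replicate 1 the numbers were 24 of 97 on X (24.7%), against 287 of 903 on autosomes (31.8%). X also holds fewer of the 1000 best peaks for its length, and how much of the wider spacing follows from density alone was not tested.

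The comparison of the ChIP replicates asked whether the same positions on X were called in both. A smaller share of peaks was called in both on X than on any autosome. In replicate 1, 902 of 4453 X peaks (20.3%, 95% exact binomial interval 19.1 to 21.5%) overlapped a peak of replicate 2 by at least 1 bp, against 30.9% of autosomal peaks. The autosomes ranged from 26.6% on V to 35.1% on III, and over all nuclear peaks of replicate 1 the share was 29.3%. In replicate 2, 839 of 3218 X peaks (26.1%, interval 24.6 to 27.6%) overlapped a peak of replicate 1, against 38.3% of autosomal peaks. The autosomes ranged from 33.9% on V to 42.8% on III, and over all nuclear peaks of replicate 2 the share was 36.6%. The lists are dense. Replicate 2 peaks cover 7.35% of X and 9.52% of the autosomes, and replicate 1 peaks 11.4% and 13.9%. How much overlap such coverage alone would give was not tested, so a peak with a partner need not be a reproducible site.

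With rank as a covariate, the odds that a peak had a partner in the other list were 0.586 times as high on X as on the autosomes in replicate 1 (95% interval 0.535 to 0.642, adjusted p = 1.67e-29, n = 29973 peaks) and 0.603 times in replicate 2 (0.548 to 0.665, adjusted p = 1.06e-23, n = 22838 peaks). The tests are logistic regressions over all nuclear peaks with standard errors clustered by 100 kb. Both score the same pairing of lists from opposite sides, so they are not independent results. The other list has fewer peaks per Mb on X, as given above. With the other list's count in the same 100 kb window added as a covariate, an alternative chosen after the data were seen, the odds ratio was 0.812 in replicate 1 (adjusted p = 7.56e-07, n = 29973 peaks) and 0.787 in replicate 2 (adjusted p = 1.33e-07, n = 22838 peaks). Against V alone, with rank as the only covariate, it was 0.704 in replicate 1 and 0.710 in replicate 2.

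**Figure D4:**
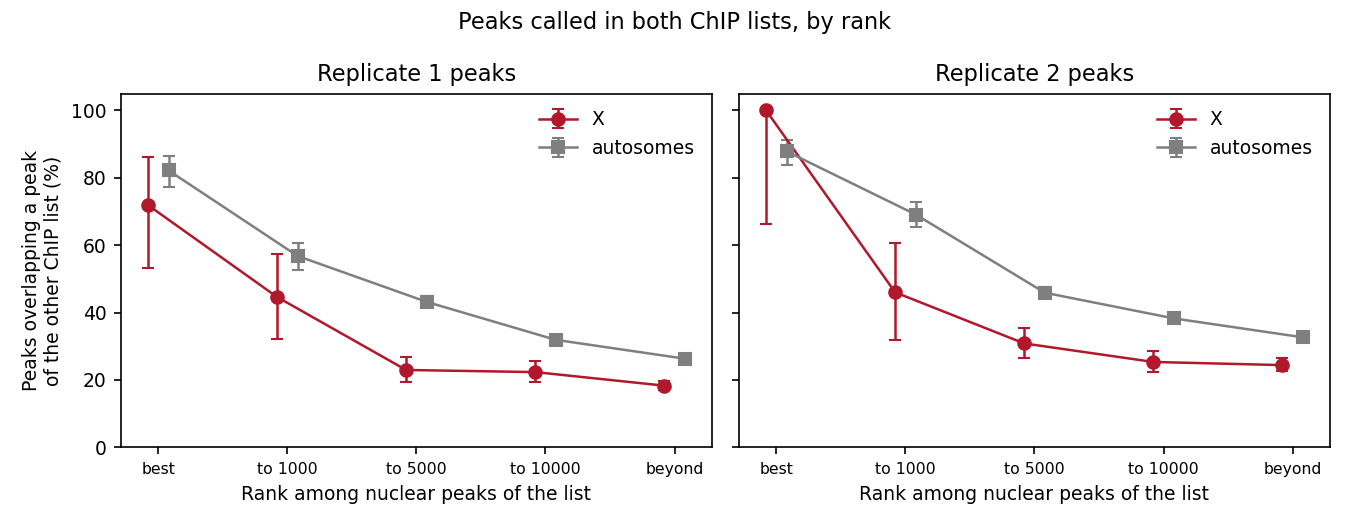
Share of peaks (%) that overlap a peak of the other ChIP list, on X (red circles) and on the autosomes (grey squares), for the best peaks (as many as the combined list holds), ranks up to 1000, 5000 and 10000 and those beyond, with 95% exact binomial intervals for counting error. Beyond rank 1000, X is below the autosomes with intervals that do not overlap, while the best class holds only 32 and 9 X peaks.

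Below the best class, the X share lay under the autosomal share in each class of rank in both lists, and within the best class the counts on X were too few to resolve a difference. Between ranks 1000 and 5000 of replicate 1, 23.0% of X peaks had a partner (95% exact binomial interval 19.3 to 26.9%), against 43.2% of autosomal peaks (41.5 to 44.8%). The shares in replicate 2 were 30.8% on X (26.6 to 35.3%), against 45.9% (44.2 to 47.5%). From the best class to rank 1000, 44.6% of X peaks of replicate 1 had a partner (32.3 to 57.5%), against 56.8% of autosomal peaks. There the shares in replicate 2 were 46% on X (31.8 to 60.7%), against 69.1% (65.3 to 72.7%). Beyond rank 10000 they were 18.3% on X, against 26.3%, in replicate 1, and 24.4% on X, against 32.6%, in replicate 2. Among the best peaks, 23 of 32 X peaks of replicate 1 (71.9%, interval 53.3 to 86.3%) had a partner, against 82.2% of autosomal ones. In replicate 2 all 9 X peaks did, an interval of 66.4 to 100%, against 87.8%. Most of the best X peaks thus overlapped a peak of any rank in the other list, within intervals that include the autosome values.

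When only the 1000 best peaks of each list were allowed on both sides, the replicates went in opposite directions. In replicate 1, 16 of 97 X peaks (16.5%) had a partner, against 23.1% of autosomal peaks, an odds ratio of 0.456 that did not pass (adjusted p = 0.0714, n = 1000 peaks). In replicate 2, 16 of 59 X peaks (27.1%) had one, against 23.0% of autosomal peaks, an odds ratio of 1.70 that did not pass either (adjusted p = 0.116, n = 1000 peaks). Both odds ratios have rank as a covariate, so they lie farther from 1 than the shares alone would give. In replicate 2 all of these 1000 peaks are tied at the highest score, so its covariate is the order of tied peaks. The same number of X peaks is set against a smaller total in replicate 2.

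The distance between overlapping peaks was much the same on X and elsewhere. Because partners must overlap and peak widths are nearly all fixed within a list, this distance has the same upper bound on each chromosome. It could differ only within that bound. The median distance between the midpoints of a replicate 1 peak and its partner was 192 bp on X, against 191 to 199.5 bp on the individual autosomes, and 28.2% of the X pairs were within 100 bp, against 27.4 to 29.7%. In rank they matched loosely. Spearman's rho between the ranks of the partners was 0.15 over the 902 X peaks, against 0.19 to 0.21 on the individual autosomes, as a description across peaks of the same libraries. Joining overlapping peaks of both replicates gave 5894 regions on X, of which 761 (12.9%) held peaks of both, 2982 held replicate 1 peaks alone and 2151 replicate 2 peaks alone. On the autosomes the share with both went from 17.05% on V to 22.9% on III. Of the 761 regions of X, 508 were made of 1 peak from each list and 47 of 4 or more peaks, and the longest region was 2153 bp.

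The shared peaks of replicate 1 were again spread along X, with 288, 316 and 298 of the 902 in the left, central and right parts. With both deposited ranks, which count mitochondrial peaks too, at 1000 or better, 5 of the 15 such X peaks lay in each part. These 15 amount to 0.847 per Mb on X, against 2.51 per Mb on the autosomes and 1.43 on V, the lowest of them.

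Sites on X called in both replicates were ordered by the worse of their ranks in the replicates, here the deposited rank over all peaks. All replicate 2 ranks of the sites named from this order lie among the peaks tied at the highest score. So do their replicate 1 ranks, except the one at 624. The order thus rests largely on the deposited number and not on the score. First was the site at 11093897 to 11094386 in replicate 1, ranked 15, whose partner in replicate 2 at 11094031 to 11094450 ranked 51. It was the best-ranked X peak in each replicate list and overlapped combined peak 2. The site at 5801140 to 5801629 ranked 53 in replicate 1 and 249 in replicate 2, and that at 16929620 to 16930109 ranked 132 and 281. The site at 3035928 to 3036417 ranked 48 and 296. These 4 sites are the X sites whose ranks in both replicates fall within the length of the combined list, and they lie in the central, left, right and left parts of X.

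The next sites on X had ranks within 1000 in both lists. They began at 4208935 (ranks 334 and 406 in replicates 1 and 2), 12889695 (422 and 198), 11095356 (78 and 428), 8969376 (465 and 239), 12362879 (44 and 581) and 2612980 (624 and 533). Midpoints of the partners were 7 to 163 bp apart over the 10 sites, and each of the 10 overlapped a combined peak. Of all replicate 1 peaks with both ranks within 1000, 14 of 15 on X and 157 of 207 on the autosomes overlapped one. Other X peaks that were strong in one replicate ranked far lower in the other. The X peak ranked 17 in replicate 1, at 14525632 to 14526121, had a partner ranked 4863 in replicate 2, and the one ranked 20, at 9465591 to 9466080, had a partner ranked 8563. In replicate 2 the X peak ranked 235, at 7794515 to 7794934, had a partner ranked 10014 in replicate 1 and overlapped no combined peak. Low ranks at combined peaks were not particular to X. On the autosomes the replicate peaks at combined peaks ranked as low as 18426 in replicate 1 and 19561 in replicate 2, against 954 and 11814 on X.

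The 24 combined peaks on X were few and mostly single. They ran from 1389251 to 16930206, with 5 in the left part, 11 in the central part and 8 in the right part. The central part had 1.69 times the density of the outer parts, with a 95% interval of 0.674 to 4.25 that does not settle a direction (adjusted p = 0.379, quasi-Poisson regression, n = 1008 windows). The contrast with the autosomes was a ratio of 1.22 (0.468 to 3.17, adjusted p = 0.743, n = 1008 windows). Of the 177 windows of 100 kb, 155 held none and 20 held 1. The windows at 9000001 to 9100000 and 11000001 to 11100000 held 2 each.

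The median spacing between neighbouring combined peaks on X was 510 kb between midpoints, with 3 spacings within 100 kb. A single pair lay within 5 kb, at 11093824 to 11094459 and 11095282 to 11095917, with midpoints 1.46 kb apart. These are combined peaks 2 and 82, and they match the first and the seventh of the shared sites above. No combined peaks overlapped each other on X, against 40 of 305 on the autosomes. Of those on X 8.33% had a neighbour within 5 kb, against 24.9% on the autosomes.

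After combined peak 2, the best on X were combined peak 35 at 9091253 to 9091888 (ranks 50 and 2548 in replicates 1 and 2), peak 39 at 9465497 to 9466132 (20 and 8563) and peak 53 at 14525551 to 14526186 (17 and 4863). Combined peak 75 was at 11605513 to 11606148 (43 and 1135), peak 78 at 5801049 to 5801684 (53 and 249) and peak 82 in the pair above (78 and 428). Combined peak 90 was at 16929571 to 16930206 (132 and 281), peak 115 at 8969295 to 8969930 (465 and 239) and peak 119 at 12362817 to 12363452 (44 and 581). Of these 10 best on X, peak 2 included, 1 lay in the left part, 6 in the central part and 3 in the right part.

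All 24 overlapped a replicate 1 peak, as did all 305 on the autosomes. Of the 24, 22 (91.7%) overlapped a peak of both replicates, against 98.2% over all combined peaks. How the combined list was made is not given, so this overlap is a description. The 2 without a replicate 2 partner were combined peak 134 at 13145077 to 13145712 and combined peak 184 at 1389251 to 1389886, ranked 70 and 94 in replicate 1. Over the 22, ranks ran from 15 to 954 in replicate 1 with a median of 78.5, and from 51 to 11814 in replicate 2 with a median of 575.5. On the autosomes the medians were 261 in replicate 1 and 315 in replicate 2. All these medians lie among the ranks tied at the highest score of their list. The lists differ in length and in how many X peaks lead them, so a rank in one is not a level in the other. Both ranks were within 1000 for 14 of the 24 combined peaks on X (58.3%), against 53.4% of those on the autosomes.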

How the data were processed

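The deposited files hold peaks with a position, a rank number and a score. Per the file headers the build is WormBase WS220, and the source field names SPP, a peak caller, and IDR, a method that scores how reproducible peaks are between replicates. Steps not given in the sources used here include the alignment, versions, thresholds, use of the inputs and the making of the combined list. The deposited score served only to find tied peaks. The ChIP file names carry replicate numbers 2 and 3, and each file was assigned to the library, titled 1 or 2, that holds it. Members, tests and windows were chosen with earlier results of these data known.

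Mitochondrial peaks were left out. Chromosome length was the highest peak end in any list, 17717610 bp for X. Positions use peak midpoints. Fitted windows are equal parts of a chromosome, of about 100 kb, so they differ slightly from the 100 kb windows that are named. All p-values are two-sided and adjusted over 13 tests. Sites were named by rule: the 10 best combined and 10 best shared X peaks, the best X peak of each list, the densest windows and the longest gap. The X peaks with discordant ranks were chosen after their values were seen. Alternatives varied the window, peak set, overlap, model and covariates. The fits used statsmodels 0.14.6 with scipy 1.17.1, pandas 2.3.3 and numpy 2.4.6 under Python 3.11.15, figures matplotlib 3.10.9, and were tested on simulated data.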

Additional observations from a re-analysis of the deposited data

How the results depend on the processing

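Of 86 alternative values with a test, 77 kept their direction and their side of the threshold. The density ratio of X ran from 0.50 to 0.913 in replicate 1 and from 0.131 (best peaks only, as many as the combined list holds) to 0.896 (against V alone) in replicate 2, and each passed. Over all peaks tied at the highest score, which need no ordering, replicate 2 gave 0.404. In the combined list it was 0.578 against V alone, with no call. The partner odds ratio with the 1000 best peaks of both lists lost its call at 0.456 in replicate 1 and turned to 1.70, not called, in replicate 2. The contrast of the central part of X with the autosomes passed once, at 0.893 with a central part of 50% in replicate 1. Other values crossed 1, none of them called. Within X in replicate 1 they were 1.56 with the best peaks only, 1.03 with the 1000 best and 1.08 with shared peaks only. For X against the autosomes with the best peaks only they were 1.13 in replicate 1 and 1.80 in replicate 2. The cause of these changes was not tested.

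With 2 replicate lists, leaving out either returns the value of the other, so this was no separate check. The 10 values, with no test, were 0.764 to 0.813 for density, 0.586 to 0.603 for partners and 1.09 to 1.16 for rank. The partner values still use both lists, since a partner lies in the other list. The central part of X gave 0.959 to 1.003, with a mean of 0.981. Its contrast with the autosomes gave 0.899 to 0.958. No paired analysis was possible because the input libraries, which share replicate numbers with the ChIP libraries, have no values here. Read depth is unknown, and its part in the lower density and overlap on X was not tested.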
